A study of Sus scrofa with 14 samples.

Results

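This report describes 9 genes of Wnt and R-spondin signalling in the swine mammary gland and in milk. The genes were chosen by name, from a list of 10 that holds the Wnt ligands WNT4, WNT5A, WNT5B, WNT7B and WNT11, the R-spondins RSPO1 and RSPO3, the R-spondin receptor LGR4 and the Wnt co-receptors LRP5 and LRP6. A gene was taken where its symbol stood in the gene lists of the libraries, which together hold 30071 genes. WNT4 was not found there by symbol and is not analysed here. Nuclei came from mammary glands of multiparous sows in their second breeding cycle, with 2 sows at each of 5 stages: day 90 of gestation (G90), days 0 and 20 of lactation (L0, L20), and 2 and 7 days after natural involution (PI2, PI7). No treatment or altered genotype is named for any stage, so stages differ by time point and by sow. Tissue sections covered 1 gland at G90 and 1 at PI2, and milk cells came from 1 sample labelled L0 and 1 labelled L20. The title of the L0 milk sample carries the letter that G90 samples bear, so its stage rests on its label for time. The labels do not say whether sections and milk came from sows that also gave nuclei.

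Wnt proteins are secreted signals that bind Frizzled receptors together with LRP5 or LRP6 and thereby keep β-catenin from being degraded, or act through other receptors such as ROR2 without β-catenin. R-spondins are secreted proteins that bind LGR4, LGR5 or LGR6 and hold back the membrane ubiquitin ligases RNF43 and ZNRF3, which otherwise remove Frizzled receptors from the cell surface. In the mammary gland of the mouse, Wnt ligands and R-spondin 1 are known as signals downstream of progesterone during side branching and the growth of alveoli in pregnancy.

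The clearest difference between stages concerned RSPO1, and the genes that β-catenin commonly switches on include the feedback inhibitors AXIN2 and NKD1, which are described beside it below. The 250 bases before the start of each of these 3 genes are therefore shown, read 5′ to 3′ on the strand of the gene from the RefSeq annotation of Sscrofa11.1. All 3 genes lie on the minus strand, with windows at chr6:93690329-93690578 for RSPO1, chr6:34319585-34319834 for NKD1 and chr12:12343208-12343457 for AXIN2. Capitals mark CTTTGA (or TCAAAG, its reverse complement), the core letters of sites that TCF and LEF factors bind.
RSPO1: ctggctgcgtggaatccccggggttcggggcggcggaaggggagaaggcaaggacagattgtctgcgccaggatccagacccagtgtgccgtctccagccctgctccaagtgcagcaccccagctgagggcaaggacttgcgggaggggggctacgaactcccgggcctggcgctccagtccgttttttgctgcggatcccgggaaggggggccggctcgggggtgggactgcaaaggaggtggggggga
NKD1: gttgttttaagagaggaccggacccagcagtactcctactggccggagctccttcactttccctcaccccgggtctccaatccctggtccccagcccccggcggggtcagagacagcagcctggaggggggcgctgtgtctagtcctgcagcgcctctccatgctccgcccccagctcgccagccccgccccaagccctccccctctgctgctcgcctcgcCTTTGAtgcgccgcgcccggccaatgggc
AXIN2: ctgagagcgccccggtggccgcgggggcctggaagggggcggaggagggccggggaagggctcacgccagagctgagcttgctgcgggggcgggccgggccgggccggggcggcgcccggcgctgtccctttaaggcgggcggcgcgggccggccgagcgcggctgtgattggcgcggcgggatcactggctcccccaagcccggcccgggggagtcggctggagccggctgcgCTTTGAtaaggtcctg
The window of RSPO1 held no match. Those of NKD1 and AXIN2 held 1 match each, starting 29 and 16 bases before the gene. Of 19556 windows of the same length before other genes and these, 2087 (10.7%) held a match on either strand, so a match is common and describes letters only. The windows of LGR6 and ZNRF3, the other listed Wnt genes called higher at G90 in luminal nuclei, held 0 matches and are not printed. GC content of the windows was 68.4% for RSPO1, 68.8% for NKD1 and 78.4% for AXIN2.

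Among the ligands, WNT5A (ENSSSCG00000035859) lies on chromosome 13 at 37344684-37367215, WNT5B (ENSSSCG00000000759) on chromosome 5 at 68627158-68731938, WNT7B (ENSSSCG00000027365) on chromosome 5 at 3521412-3572322 and WNT11 (ENSSSCG00000022347) on chromosome 9 at 10413182-10435158, in RefSeq coordinates of Sscrofa11.1. RSPO1 (ENSSSCG00000032240) spans 93664839-93690328 of chromosome 6 and RSPO3 (ENSSSCG00000004218) spans 35985985-36066432 of chromosome 1. LGR4 (ENSSSCG00000013335) and LRP5 (ENSSSCG00000012885) lie on chromosome 2 at 32871837-32979150 and 4533721-4653997, and LRP6 (ENSSSCG00000000625) lies on chromosome 5 at 60149041-60318719. The protein-coding gene FBXL14 lies within WNT5B on the opposite strand, and lncRNA genes overlap WNT5A, WNT7B, LGR4 and LRP5 on the opposite strand. The use of strand in counting was not given in the sources used here, so UMIs of these 5 genes may include those of an overlapping gene.

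After the filter of 300 or more genes and no more than 25% mitochondrial UMIs (unique molecular identifiers, each marking 1 RNA molecule), 126833 nuclei of 10 glands were kept, 9332 to 18693 per gland, with 18962138 to 53165191 UMIs in all and a median of 1382 to 2496 UMIs per nucleus. Of 112 marker genes, 106 were found, and nuclei with at least 2 markers of a class were assigned to the class with most of them. This gave 72699 luminal, 12085 fibroblast, 6665 blood endothelial, 4877 myeloid, 4135 T and NK, 2702 lymphatic endothelial and 1670 myoepithelial nuclei. At least 2 markers of another class were also present in 24.9% of luminal, 38.3% of fibroblast, 48.9% of myoepithelial and 71.3% of lymphatic endothelial nuclei. The share was 54.0% in blood endothelial and 46.7% in myeloid nuclei. The classes are thus enriched rather than pure, and doublets were kept. Sows of a stage were not always the most alike. The rank correlation of whole-gland counts over 22695 genes was 0.977 between both L0 glands and 0.957 between both G90 glands, below the 0.966 of G90 replicate 1 with PI7 replicate 1. It was 0.908, 0.904 and 0.929 within L20, PI2 and PI7, where 0.976 joined L20 replicate 2 with PI7 replicate 1 and 0.975 joined PI2 replicate 1 with PI7 replicate 2. L20 replicate 2 stood furthest apart in its cell classes, with 9.99% luminal and 32.9% fibroblast nuclei against 67.6% luminal nuclei in L20 replicate 1. The luminal share of nuclei in the other glands was 53.0% and 83.6% for G90, 80.6% and 82.1% for L0, 58.7% and 73.8% for PI2, and 30.0% and 51.0% for PI7.

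To follow these genes over the reproductive cycle, UMIs of all nuclei of a gland were summed and expressed as CPM (UMIs per 1000000). In the whole gland, RSPO1 was the only one of the 9 genes called between stages by edgeR. It stood at 46.6 and 35.9 CPM in the G90 glands, from 1542 and 1909 UMIs. At L0 it stood at 2.85 and 4.38 CPM, at L20 at 1.118 and 3.89, at PI2 at 2.91 and 1.28, and at PI7 at 3.91 and 0.91. Both G90 glands thus lay above all 8 later glands, with a mean 15.5 times higher, while the 4 later stages overlapped one another. In edgeR's quasi-likelihood test of G90 against the mean of the later stages, RSPO1 was 3.98 ± 0.46 (SE) higher on the log2 scale, with an adjusted p of 0.0166 (Benjamini-Hochberg over 22695 genes). A gene was called at an adjusted p under 0.05 and an absolute log2 difference over 1. By this rule 1 of 9 members was called higher and none lower, beside 0.26% of all genes called higher and 0.264% called in either direction. The members' median difference was -0.39, against -0.00 over all genes. In bulk sums, fewer cells of a type and less RNA per cell cannot be told apart.

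The call of RSPO1 in the whole gland depended on which gland was left out. Its log2 difference stayed between 3.86 and 4.23 in the 10 fits without 1 gland each, but the adjusted p ran from 0.0081 to 0.288. The call was lost without G90 replicate 2 (adjusted p = 0.288 by edgeR), L0 replicate 1 (0.0823), L0 replicate 2 (0.0888), PI7 replicate 1 (0.0510) or PI7 replicate 2 (0.0575). Without L20 replicate 2, the gland that stood apart, it was kept (log2FC 4.16, adjusted p = 0.0175). With 2 sows a stage, adjusted p-values reflect the spread between these sows. In data simulated from these glands with a known change, 90.9% of genes changed by 4 on the log2 scale and 32.3% of those changed by 2 were called in this comparison, so smaller changes would often be missed.

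**Figure D1:**
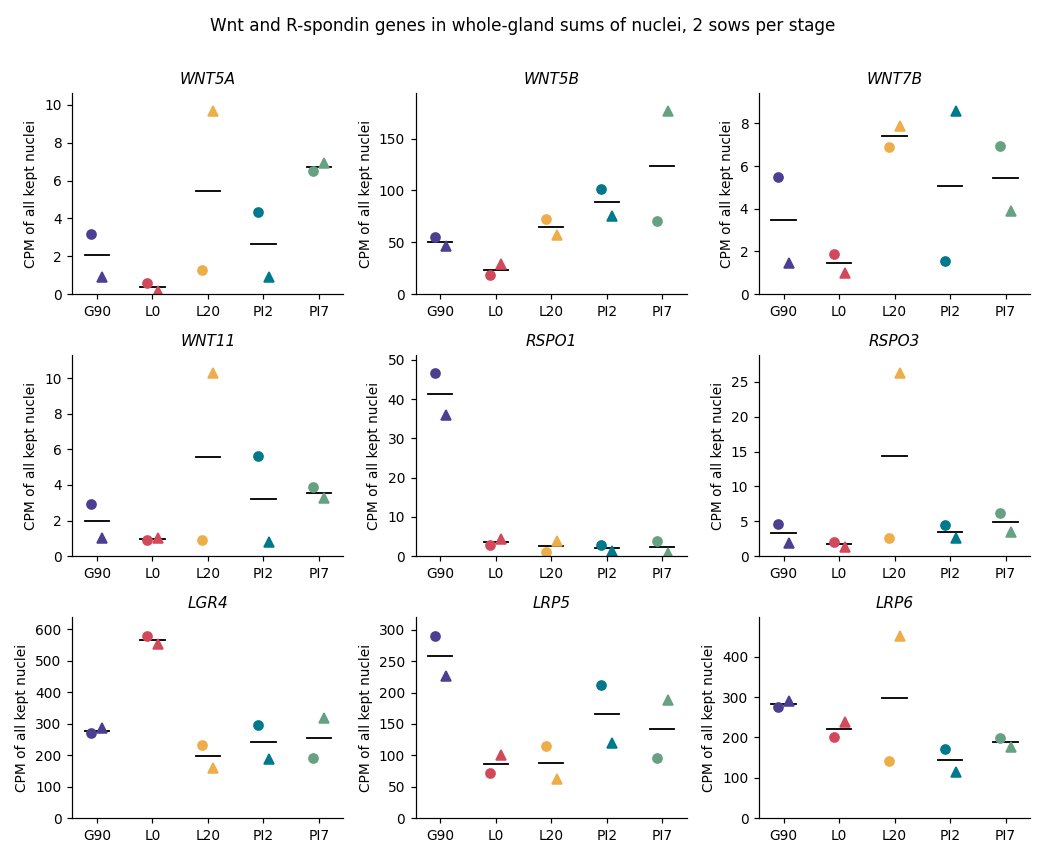
CPM of each of the 9 genes (y axis, linear) in whole-gland sums of nuclei, by stage (x axis), with 1 point per sow (circles for replicate 1, triangles for replicate 2) and a line at the mean of both sows. RSPO1 is at 46.6 and 35.9 CPM at G90 and at no more than 4.38 CPM in any later gland, while LGR4 is highest in the L0 glands.

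The other 8 genes showed no called change in any of the 6 stage contrasts of the whole gland, and each of the other 5 contrasts called 0 of 22695 genes (0%) by edgeR. At an unadjusted p under 0.05 those contrasts held 1652 genes (L0 minus G90), 2912 (L20 minus L0), 817 (PI2 minus L20), 464 (PI7 minus PI2) and 1247 (lactation minus other stages). RSPO1 itself was 3.10 ± 0.73 lower at L0 than at G90 on the log2 scale (edgeR, adjusted p = 0.32), and was called when only the glands of the stages compared were fitted (-3.11, edgeR adjusted p = 0.0167). DESeq2 called 4 member differences, namely RSPO1 higher at G90 than later (adjusted p = 4.68e-09), RSPO1 lower at L0 than at G90 (adjusted p = 0.0027), LGR4 lower at L20 than at L0 (adjusted p = 0.027) and WNT5A higher at L20 than at L0 (adjusted p = 0.0277). Among all genes, DESeq2 called far more than edgeR in these contrasts. It called 257 higher and 188 lower at G90 than later, 268 and 124 for L0 minus G90, and 612 and 545 for L20 minus L0. WNT5A stood at 9.66 CPM in L20 replicate 2 and 1.26 CPM in L20 replicate 1, and without L20 replicate 2 its edgeR difference of 3.14 between these stages became 1.55 (adjusted p = 0.72).

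LGR4, a receptor through which R-spondins act, was highest at L0 in the whole gland, with 580 and 553 CPM. It stood at 269 and 287 CPM at G90, at 233 and 161 at L20, at 296 and 189 at PI2 and at 191 and 318 at PI7. Both L0 glands lay above all other glands, whose values overlapped. The share of all genes with both glands of a stage at 1 end was not counted, so this is a description only. The difference of L20 minus L0 was -1.96 ± 0.59 on the log2 scale and did not pass (edgeR, adjusted p = 0.22). LGR4 was mostly luminal, as described below, and the lowest gland, L20 replicate 2, was the one with the fewest luminal nuclei. In luminal nuclei alone both L0 glands were again highest, with 606 and 569 CPM against 261 and 468 at L20. These UMIs are part of the whole-gland sums, so the repeat adds no support. The other stages changed places. In the whole gland their means were 278 CPM (G90), 254 (PI7), 242 (PI2) and 197 (L20), and in luminal nuclei 380 (PI7), 365 (L20), 320 (G90) and 288 (PI2).

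LRP5, a co-receptor that Wnt ligands need to stabilise β-catenin, was higher at G90 (291 and 227 CPM) than in any later gland (lowest 62.2, highest 212). The groups did not overlap, but the log2 difference of 1.04 ± 0.46 did not pass the test (edgeR, adjusted p = 0.70). In luminal nuclei LRP5 stood at 355 and 233 CPM at G90 and at 69.9 to 244 CPM later, so the groups overlapped there (1.06 ± 0.38, edgeR adjusted p = 0.29). LRP6, the related co-receptor, ranged from 115 CPM in PI2 replicate 2 to 453 CPM in L20 replicate 2, with 275 and 291 CPM at G90, and the stages overlapped. In luminal nuclei LRP6 stood at 297 and 295 CPM at G90 and between 109 and 262 CPM later. These luminal groups did not overlap, with a log2 difference of 0.67 ± 0.29 that did not pass (edgeR, adjusted p = 0.42). How many of all genes separate the G90 from the later glands was not counted, so these separations are descriptions only. By edgeR, 1579 genes in the whole gland and 2293 in luminal nuclei had an unadjusted p under 0.05 for G90 against later stages.

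Of the ligands, WNT5B, which is known to act mostly without β-catenin, had the most UMIs in all. Its whole-gland level was 18.3 and 28.9 CPM at L0, below every other gland, and 176 CPM in PI7 replicate 2, the highest. The other glands lay between 46.0 and 102 CPM. How many of all genes place both glands of a stage lowest was not counted, so the L0 order is a description only. Lactation (L0 and L20) differed from the other stages by -0.93 ± 0.41 on the log2 scale (edgeR, adjusted p = 0.88). WNT5A, the related ligand, stood at 0.57 and 0.15 CPM at L0 and at 9.66 CPM in L20 replicate 2, and WNT11, a ligand of β-catenin-independent signalling, ranged from 0.80 to 10.3 CPM. WNT7B, a ligand known to signal through β-catenin, ranged from 1.01 to 8.56 CPM, and RSPO3, the other R-spondin, from 1.36 CPM in L0 replicate 2 to 26.2 CPM in L20 replicate 2. L20 replicate 2 was the highest gland for WNT5A, WNT11, RSPO3 and LRP6, and it also held 4985 of the 12085 fibroblast nuclei. The part of that class in these levels was not tested in the whole gland. Without this gland, none of these 4 genes exceeded 7 CPM except LRP6, whose next highest value was 291 CPM.

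To ask whether the stage difference of RSPO1 was present within a cell class, UMIs were summed over the nuclei of each class in each gland. Luminal nuclei carried most of the RSPO1 UMIs at G90, 1393 of 1542 and 1807 of 1909. They also held most UMIs of all genes there, 23739110 of 33120419 in replicate 1 and 48986195 of 53161349 in replicate 2. Their RSPO1 level lay above that of the whole gland in G90 replicate 1 (58.7 against 46.6 CPM). In G90 replicate 2 it lay near that level (36.9 against 35.9 CPM). Over all stages, luminal nuclei were the highest tested class for RSPO1 in 1 of 10 glands. In luminal nuclei RSPO1 stood at 58.7 and 36.9 CPM at G90, at 2.47 and 4.36 at L0, at 1.02 and 2.25 at L20, at 3.42 and 0.97 at PI2, and at 2.40 and 0.60 at PI7. No later gland came near the G90 glands, and the mean at G90 was 21.9 times that of the later glands. The log2 difference was 4.48 ± 0.46 (edgeR, adjusted p = 0.0104 over 20069 genes). Here too RSPO1 was the 1 member of 9 called, with 0.698% of all genes called higher and 0.842% in either direction. The call was kept in each of the 10 fits without 1 gland, with log2 differences from 4.34 to 4.76 and adjusted p-values from 0.0031 to 0.0487. Without L20 replicate 2 the difference was 4.56 (adjusted p = 0.0166).

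The share of luminal nuclei with at least 1 RSPO1 UMI was 15.6% and 8.87% at G90 and 0.12% to 0.93% later. Luminal nuclei were deeper at G90 (medians of 3486.5 and 2763 UMIs) than in most later glands (1592 to 3619). After each nucleus was thinned to 1000 UMIs, with shallower nuclei left out, the shares were 5.25% and 3.51% at G90 and 0.06% to 0.35% later, so the G90 glands stayed apart at equal depth. Myeloid nuclei, taken as a class that should lack RSPO1, held a UMI in 0.65% and 0.77% of nuclei at G90, with median depths of 2096 and 1800.5 UMIs and 4.41 and 3.82 CPM, from 3 and 1 UMIs. The luminal level at G90 thus lay above the level in that class. That myeloid nuclei lack RSPO1 was assumed, and free RNA was not removed, so their level does not set a background for all classes. Fibroblast, blood endothelial and T and NK nuclei, described next, stood higher at G90 than myeloid nuclei. T and NK nuclei stood at 9.33 and 47.5 CPM at G90, from 10 and 13 UMIs, and at 0 to 7.99 CPM later. G90 and the later stages did not overlap in this class, with a mean 23.9 times higher at G90. The second G90 value lay above the luminal 36.9 CPM of that gland. The share of all genes separated like this was not counted. No stage test was fitted in T and NK nuclei, and 27.0% of nuclei of that class over all glands carried at least 2 markers of another class.

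Fibroblast and blood endothelial nuclei held RSPO1 at G90 at lower levels than the luminal nuclei of the same gland. Fibroblast nuclei stood at 17.4 and 18.4 CPM at G90 and between 0 and 42.1 CPM later, where the highest value was 3 UMIs in L0 replicate 2. The log2 difference of 1.92 ± 0.78 did not pass (edgeR, adjusted p = 0.72). Blood endothelial nuclei stood at 12.6 and 21.3 CPM at G90 and 0 to 17.6 CPM later, with a log2 difference of 2.66 ± 0.87 (edgeR, adjusted p = 0.71). In these fits, few genes were called in G90 against later stages, 0.0151% in fibroblast, 0.0167% in blood endothelial and 0% in myoepithelial nuclei, with 785, 706 and 449 genes at an unadjusted p under 0.05. The low-count filter left 8 members in fibroblast, 6 in blood endothelial and 4 in myoepithelial nuclei, and none of these was called in any stage contrast. In luminal nuclei the other contrasts called no member either, beside 0.00498% of genes for L0 minus G90, 0.00997% for lactation against other stages and 0% for the rest.

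Whether the stage difference of RSPO1 was larger in luminal than in other nuclei was tested directly, in a fit over 14992 genes added after the data were seen. The stage difference in luminal minus that in fibroblast nuclei was 2.37 ± 0.69 on the log2 scale (edgeR, adjusted p = 0.11), and that in luminal minus blood endothelial nuclei was 1.70 ± 0.79 (adjusted p = 0.37). None of the members was called in this or in the comparison with myoepithelial nuclei, beside 0.707% of genes called for fibroblast, 1.13% for blood endothelial and 0.54% for myoepithelial nuclei. At an unadjusted p under 0.05, 1375, 1810 and 1514 genes differed. A stage difference particular to luminal nuclei was therefore not shown. Leaving out 1 gland at a time moved the fibroblast comparison of RSPO1 from 0.89 to 2.82, with adjusted p-values from 0.043 to 1, and it was called without PI7 replicate 1.

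**Figure D2:**
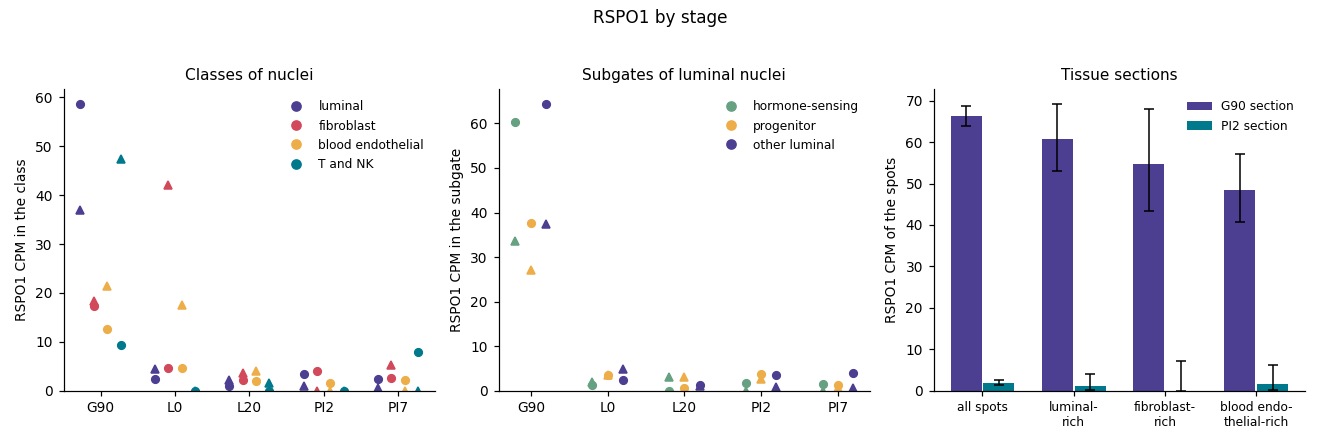
RSPO1 in CPM (y axes, linear) by stage in 4 classes of nuclei (left) and in 3 subsets of luminal nuclei (middle), with circles for replicate 1 and triangles for replicate 2 of a stage, and in the G90 and PI2 sections over all spots and over spots rich in markers of a class (right, bars with 95% Poisson intervals). Luminal nuclei stand at 58.7 and 36.9 CPM at G90 and at no more than 4.36 CPM later, and the whole G90 section stands at 66.2 CPM against 1.84 CPM at PI2.

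Within the luminal class, hormone-sensing nuclei (at least 2 of 4 markers, 3558 nuclei) and progenitor nuclei (at least 2 of 3 markers, 11331 nuclei) were set apart from the other 57004 luminal nuclei that met neither gate. At G90, RSPO1 was present in all 3 subsets, at 60.4 and 33.6 CPM in hormone-sensing, 37.6 and 27.1 in progenitor and 64.4 and 37.4 in other luminal nuclei. Over the 10 glands, with the gland as a block, no member was called in either subset, beside 6.13% of 15669 genes called for hormone-sensing and 0.172% for progenitor nuclei. LGR4 was 0.61 ± 0.18 lower on the log2 scale in hormone-sensing than in other luminal nuclei (edgeR, adjusted p = 0.019), short of the limit of 1. Its levels in hormone-sensing nuclei were 305 and 278 CPM at G90 against 349 and 299 in other luminal nuclei of these glands, and 622 and 590 against 612 and 566 at L0. They were 189 and 240 against 261 and 469 CPM at L20, 95.02 and 116 against 399 and 208 at PI2, and 124 and 129 against 309 and 443 at PI7. Hormone-sensing nuclei thus lay lower in all glands except both at L0, and whether the gap differed between stages was not tested. WNT5B was 0.60 ± 0.15 lower in hormone-sensing nuclei (edgeR, adjusted p = 0.0050) and lay below the level of other luminal nuclei in 9 of 10 glands. Hormone-sensing nuclei were deeper, with medians of 3280.5 to 5463 UMIs against 1499 to 3049 in the other luminal nuclei.

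To see whether other genes of the pathway differed with RSPO1, 71 further genes of Wnt signalling were listed by role, of which 69 were found. In luminal nuclei 4 of 58 tested were called higher and 0 lower at G90 than later, beside 0.698% of all genes higher. They were LGR6, a receptor for R-spondins, ZNRF3, the membrane ligase that R-spondins hold back, and the feedback inhibitors NKD1 and AXIN2, whose windows are printed above. LGR6 stood at 302 and 200 CPM at G90 and at 6.48 to 68.3 CPM later (log2FC 3.22 ± 0.54, edgeR adjusted p = 0.0256). ZNRF3 stood at 220 and 270 CPM at G90 and at 22.5 to 95.6 later (2.36 ± 0.37, adjusted p = 0.0199). NKD1 stood at 73.0 and 27.6 CPM at G90 and at 3.98 to 12.5 later (2.73 ± 0.36, adjusted p = 0.0110). AXIN2 stood at 50.4 and 29.4 CPM at G90 and at 2.82 to 13.6 later (2.07 ± 0.32, adjusted p = 0.0173). None of these 4 genes had a later gland within the range of the G90 glands. They were picked by a test of the same sums, so this separation describes them and adds no support.

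These calls were less stable than that of RSPO1 in luminal nuclei. Of 10 fits without 1 gland, the call was kept in 5 for LGR6, 8 for NKD1, 6 for ZNRF3 and 6 for AXIN2, with adjusted p-values of up to 0.364, 0.0955, 0.552 and 0.266. Their log2 differences stayed between 3.07 and 3.74 for LGR6, 2.20 and 3.13 for NKD1, 1.93 and 2.70 for ZNRF3 and 1.91 and 2.22 for AXIN2. All 4 calls were lost without G90 replicate 2. LGR6, NKD1 and AXIN2 were also lost without G90 replicate 1, LGR6, ZNRF3 and AXIN2 without L0 replicate 1 or PI7 replicate 2, ZNRF3 without L0 replicate 2, and LGR6 without PI7 replicate 1, each with an adjusted p between 0.0552 and 0.128. Other targets and partners were not called at G90 in luminal nuclei, among them RNF43, the second such ligase (log2FC 0.54, adjusted p = 0.69), LGR5 (0.34), the transcription factors LEF1 (-0.39) and TCF7 (-1.32, adjusted p = 0.35), and NOTUM (-0.39), an enzyme that inactivates Wnt proteins. FZD6, a Frizzled receptor, stood at 51.9 and 40.2 CPM at G90, below all later luminal sums (60.6 to 156 CPM), and its log2 difference of -1.03 ± 0.42 did not pass (edgeR, adjusted p = 0.38). It overlapped between stages in the whole gland. The share of all genes separated like FZD6 in luminal nuclei was not counted, so this too is a description only. In the whole gland 2 of 63 listed genes were called higher at G90, beside 0.26% of all 22695 genes. They were LGR6 (3.26, edgeR adjusted p = 0.0302) and ZNRF3 (2.31, adjusted p = 0.0376), and each kept its call in 4 of 10 fits without 1 gland. AXIN2 (1.76, adjusted p = 0.0895) and NKD1 (1.43, adjusted p = 0.296) did not pass there. In the other stage contrasts, none of the listed genes tested (63 in the whole gland and 58 in luminal nuclei) was called. In the fit of class by stage added after the data were seen, the luminal stage difference exceeded that in fibroblast nuclei for 2 listed genes. They were NKD1 (by 2.93, edgeR adjusted p = 0.0095) and ZNRF3 (by 1.52, adjusted p = 0.0424). It exceeded that in blood endothelial nuclei for ZNRF3 (by 1.67, adjusted p = 0.0176). Of all 14992 genes, 0.707% and 1.13% were called in these comparisons, in either direction. Both genes were also called in luminal nuclei from the same sums, so these tests are not independent. How far they rest on single glands is not given.

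In hormone-sensing nuclei 3 of 49 listed genes were called higher than in other luminal nuclei and 1 lower, or 6.12% and 2.04%. Of all 15669 genes, 575 were called higher and 386 lower. Together these are 6.13%, a share of both directions that is not the counterpart of the 6.12% higher. ROR2, a receptor for WNT5A, was 2.59 higher, AXIN2 2.28 higher (edgeR, adjusted p = 0.0005) and the ligand WNT2B 1.39 higher, while LGR5 was 1.02 lower on the log2 scale. AXIN2 in hormone-sensing nuclei stood at 96.02 and 32.0 CPM in the G90 glands, 3.14 and 5.80 in the L0 glands, 98.2 and 37.5 in the L20 glands, 70.2 and 292 in the PI2 glands, and 36.6 and 41.2 in the PI7 glands. In other luminal nuclei it stood at 38.2 and 29.5 CPM at G90 and between 2.91 and 13.2 CPM in the later glands. Hormone-sensing nuclei were thus the higher of both in all 10 glands, but by little at L0 and in G90 replicate 2. ROR2 followed with 47.7 and 35.6 CPM at G90, 4.04 and 6.45 at L0 and up to 458 CPM at PI7 in hormone-sensing nuclei. No stage contrast was fitted within the hormone-sensing subset.

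To find where each gene was expressed, each class was compared with the mean of the other classes over the 70 sums of 7 classes in 10 glands, with the gland as a block. Of the 9 members 7 passed the low-count filter, and WNT7B and WNT11 did not. There were 14 calls. Luminal nuclei had 3 members higher and 0 lower, beside 10.2% of 12806 genes higher and 14.2% lower. Fibroblast nuclei also had 3 higher and 0 lower (8.77% and 3.65% of genes). Myoepithelial nuclei had 2 higher and 1 lower (7.46% and 7.79%). Blood endothelial nuclei had none (8.08% and 2.41%), lymphatic endothelial nuclei 1 lower (7.5% and 5.46%), T and NK nuclei 1 lower (7.83% and 10.2%) and myeloid nuclei 3 lower (9.7% and 11.9%). The members' median difference was 0.81 in luminal nuclei, against 0.16 over all genes, and 0.74 against -0.09 in fibroblast nuclei. With RLE in place of TMM scaling, the median of all genes in luminal nuclei moved by -0.26, the calls there went from 1311 higher and 1820 lower to 864 higher and 2359 lower, and LRP5 (0.92) fell under the limit of 1, WNT5A (-1.11, edgeR adjusted p = 0.0017) was called lower, and LGR4 and WNT5B kept their calls. Luminal nuclei thus had 2 members higher and 1 lower with RLE. DESeq2 also called WNT5A lower there (-1.61).

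LGR4 was the most luminal member, with the highest level of all 7 classes in 10 of 10 glands. Its luminal level had a lowest value of 205, a median of 356 and a highest of 606 CPM (388 ± 130, mean ± SD, n = 10), against 163 ± 64.3 in myoepithelial and 125 ± 55.6 in fibroblast nuclei. The luminal difference was 2.40 ± 0.12 on the log2 scale, and luminal exceeded myoepithelial nuclei, the next class, by 1.53 (edgeR, adjusted p = 1.9e-09). LGR4 was lowest in myeloid nuclei (53.6 ± 27.1 CPM), which were called lower by 1.17.

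LRP6 and LRP5 had different orders over the classes. LRP6 was highest in fibroblast nuclei in 10 of 10 glands, with a lowest value of 289, a median of 356 and a highest of 794 CPM (396 ± 147, n = 10). Fibroblast nuclei exceeded luminal nuclei (208 ± 64.7 CPM), the second class, by 0.78 on the log2 scale (edgeR, adjusted p = 1.1e-04). Their difference from the other classes was 1.40 ± 0.12, and 1.304 without L20 replicate 2, which held the highest value. T and NK nuclei were called lower (75.3 ± 46.3 CPM, log2FC -1.77 ± 0.18). LRP5 was shared by luminal (169 ± 90.7 CPM) and blood endothelial nuclei (148 ± 31.3), each the highest class in 5 glands. These 2 classes did not differ beyond their spread (0.27, edgeR adjusted p = 0.16). Luminal nuclei were called (1.19 ± 0.11), blood endothelial nuclei were not (0.88 ± 0.12, adjusted p = 2.0e-08, under the limit of 1), and myeloid nuclei were called lower by 1.54.

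Adipocyte nuclei were too few for a test, with 505 in all, of which 412 came from L20 replicate 2, and 60.4% carried at least 2 markers of another class. Pooled over glands, LRP6 stood there at 849 CPM (95% Poisson interval 809 to 890, from 1703 UMIs), with a UMI in 74.5% of nuclei, against a pooled 564 CPM in fibroblast nuclei, the highest of the tested classes. These pooled values weight the glands differently. Without L20 replicate 2, the pooled level was 436 CPM in adipocyte nuclei (356 to 528, from 104 UMIs of 93 nuclei) and 334 CPM in fibroblast nuclei. Within L20 replicate 2, LRP6 stood at 905 CPM in adipocyte nuclei (861 to 950) and at 794 CPM in fibroblast nuclei, where no other gland exceeded 431 CPM. These intervals cover counting error only. LGR4 stood at 58.3 CPM in adipocyte nuclei, 156 CPM in mural and 101 CPM in B and plasma nuclei, each pooled over glands.

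WNT5B was expressed in epithelial nuclei of both kinds, at 91.3 ± 66.4 CPM in luminal and 77.8 ± 42.7 CPM in myoepithelial nuclei (n = 10), and between 24.6 and 35.1 CPM on average in the other 5 classes. Both were called (1.48 ± 0.14 and 1.16 ± 0.17), the myoepithelial call being lost when nuclei with at least 2 markers of another class were left out (0.95). The luminal and myoepithelial levels did not differ from each other beyond their spread (0.28, edgeR adjusted p = 0.31), whereas myoepithelial exceeded T and NK nuclei, the class below, by 1.09 (adjusted p = 1.6e-04). In luminal nuclei WNT5B was low at L0 (18.1 and 28.8 CPM) and high in PI7 replicate 2 (244 CPM). The other luminal values were 57.5 and 45.7 CPM at G90, 77.1 and 138 at L20, 128 and 78.8 at PI2, and 96.9 in PI7 replicate 1. The L0 glands were the lowest of the 10, as in the whole gland, whose sums include these UMIs.

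WNT5A and RSPO3 were stromal or myoepithelial ligands at low counts. WNT5A stood at 10.8 ± 6.80 CPM in fibroblast nuclei, from 443 UMIs, with a lowest value of 0, a median of 11.53 and a highest of 21.0. In myoepithelial nuclei it stood at 16.7 ± 21.2 CPM, from 82 UMIs, with 5 of 10 glands at 0 and 61.5 CPM in PI7 replicate 2. Both classes were called (2.01 ± 0.29 and 2.79 ± 0.34) and did not differ beyond their spread (0.67, edgeR adjusted p = 0.26). WNT5A was called lower in myeloid nuclei (by 1.62) and in lymphatic endothelial nuclei (by 1.57, adjusted p = 0.033), the latter from 8 UMIs in all. RSPO3 stood at 18.6 ± 17.1 CPM in fibroblast nuclei, from 1027 UMIs, with a lowest value of 0, a median of 15.9 and a highest of 59.7 CPM in L20 replicate 2, and at 2.05 ± 0.78 CPM in luminal nuclei. It was called in fibroblast nuclei (2.71 ± 0.25), which exceeded lymphatic endothelial nuclei, the next class by mean CPM, by 2.51. That second place rests on 76.2 CPM from 3 UMIs in PI2 replicate 2, with a median of 0. In the fit, lymphatic endothelial minus T and NK nuclei was -0.36, so the gap to the class next in the fit was not given. RSPO3 was called lower in myoepithelial nuclei (by 2.01), where it had 4 UMIs. Both genes sat near the low-count filter. Of the 10 fits without 1 gland, RSPO3 was tested in 5 and then kept its fibroblast call (2.76 to 2.85), and it had no test without G90 replicate 1, L20 replicate 2, PI2 replicate 1 or either PI7 gland. WNT5A was tested in 7, with fibroblast differences of 1.98 to 2.16, and had no test without G90 replicate 1 or either PI7 gland. Its lymphatic call was lost without L20 replicate 2 (adjusted p = 0.0904) or PI2 replicate 1 (0.0997). In the 9 glands other than L20 replicate 2, fibroblast nuclei stood at 0 to 32.6 CPM of RSPO3 and were above the luminal nuclei of the same gland in 8.

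**Figure D3:**
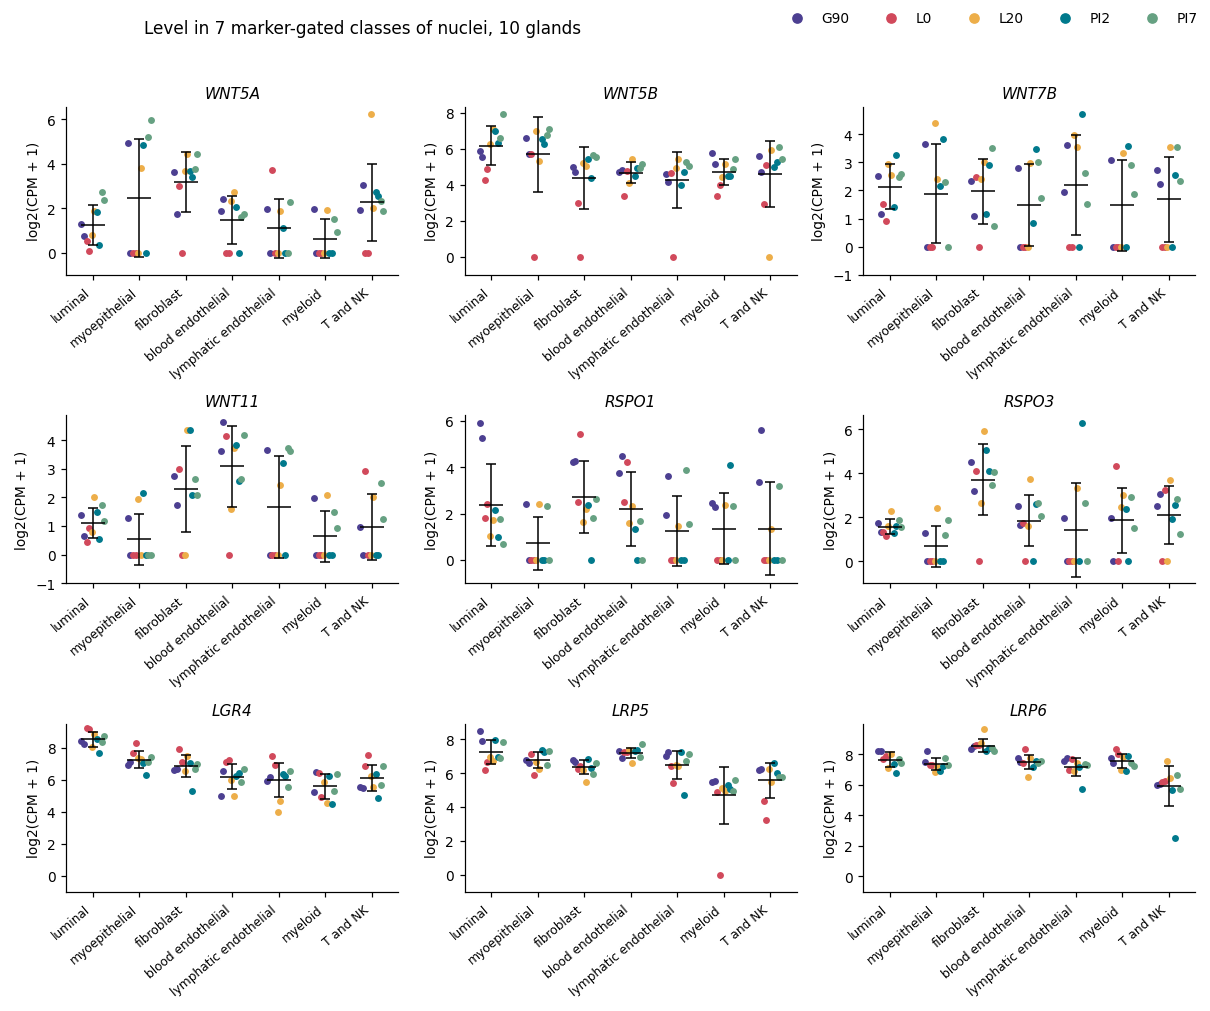
Level of each of the 9 genes in log2(CPM + 1) (y axis) in 7 classes of nuclei (x axis), with 1 point per gland coloured by stage and bars at the mean ± SD over 10 glands. LGR4 is highest in luminal nuclei and LRP6 in fibroblast nuclei in 10 of 10 glands, and points at 0 are sums without a UMI.

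WNT11 and WNT7B failed the low-count filter of the test over classes. WNT11 was most abundant in blood endothelial nuclei, with 11.2 and 23.5 CPM in the G90 glands, 16.5 and 0 in the L0 glands, 2.00 and 12.1 in the L20 glands, 13.2 and 5.003 in the PI2 glands, and 5.27 and 17.2 in the PI7 glands. Fibroblast nuclei followed with 6.55 ± 7.14 CPM and a highest value of 19.4 CPM in L20 replicate 2. WNT11 passed the filter without L0 replicate 2, L20 replicate 1 or PI2 replicate 2, with blood endothelial differences of 2.24 to 2.40. With the filter taken away, WNT11 was higher in blood endothelial (2.26, edgeR adjusted p = 3.61e-09), fibroblast (1.46) and lymphatic endothelial nuclei (1.26) than in the mean of the other classes. WNT7B showed no clear class, with means between 3.30 and 7.18 CPM in all 7 classes and lymphatic endothelial nuclei highest in 3 glands and myoepithelial nuclei in 3. RSPO1 had a luminal difference of 0.81 ± 0.33 over all stages (edgeR, adjusted p = 0.025), under the limit of 1, and no neighbouring classes in its order differed beyond their spread. It was called with 3 markers per class (1.03) and without the low-count filter (1.03).

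Over the same classes, 41 of the 71 other listed genes were tested. Fibroblast nuclei had 14 higher and 3 lower (34.1% and 7.32%, beside 8.77% and 3.65% of all genes), among them 6 higher and 1 lower of 10 secreted or surface inhibitors. SFRP2 (log2FC 5.87) and DKK2 (4.63), secreted Wnt antagonists, and ROR2 (4.83) led there, and FZD6 was among the lower (-1.28). Luminal nuclei had 6 higher and 11 lower (14.6% and 26.8%, beside 10.2% and 14.2% of all genes), with RNF43 (2.40), LGR6 (1.53) and the receptor PTK7 (1.40) higher, and WLS, which carries Wnt proteins to the surface (-2.11), WNT2 (-1.94) and ROR1 (-1.64) lower. Of the inhibitors, 1 was higher and 6 lower in luminal nuclei. Myoepithelial nuclei had 7 higher and 4 lower (17.1% and 9.76%, beside 7.46% and 7.79%), led by SOSTDC1 (5.78), an inhibitor that binds LRP5 and LRP6, FZD7 (3.01) and SFRP1 (2.43). T and NK nuclei had 3 higher and 9 lower (7.32% and 21.95%, beside 7.83% and 10.2%), with LEF1 (3.35) and TCF7 (3.23), transcription factors of T cells, highest and FZD6 lowest (-1.81). Blood endothelial nuclei had 7 higher and 3 lower (17.1% and 7.32%, beside 8.08% and 2.41%), led by the antagonist SFRP5 (3.06), FZD5 (1.89) and FZD6 (1.80), with FZD7 lower (-1.23). Lymphatic endothelial nuclei had 6 higher and 4 lower (14.6% and 9.76%, beside 7.5% and 5.46%), led by SFRP5 (3.05), WNT9A (2.52) and FZD6 (2.20), with FZD7 lower (-1.68). Myeloid nuclei had 1 higher and 17 lower (2.44% and 41.5%, beside 9.7% and 11.9%), with FZD6 lower (-2.01).

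The genes whose log-scale level over the 70 sums was most like that of a member were named by Pearson's r among 11521 genes. The sums share glands and differ in depth, and r is a description only. LGR4 had the highest values, with NAALADL2 (r = 0.87), PPP2R3A (0.81) and ZDBF2 (0.80). LRP5 was most like RPH3AL (0.77), TRAF3IP2 (0.75) and PARVA (0.74), and LRP6 most like STK3 (0.77), SPRED1 (0.72) and TBC1D12 (0.70). RSPO3 was most like FGF10 (0.73), a growth factor of stromal cells, ITGBL1 (0.66) and KCNJ3 (0.65), and RSPO1 most like DRD2 (0.64), SLC16A9 (0.61) and PCDH19 (0.60). WNT5B was most like CELSR2 (0.72), ARHGEF5 (0.72) and GPRC5A (0.71), and WNT5A most like SHAS2 (0.67), GSTA4 (0.65) and SPON1 (0.63). WNT11 was most like ATOH8 (0.67), PTGIS (0.66) and EBF3 (0.66), and WNT7B most like FRK (0.65), SPHKAP (0.63) and SPAG17 (0.62). Among the members themselves the highest r were 0.45 for WNT5B with WNT7B, 0.35 for RSPO1 with LRP6 and 0.34 each for RSPO3 with WNT7B and LGR4 with LRP5.

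In the sections these genes were measured in intact tissue, in 4721 spots at G90 (42815421 UMIs) and 2248 spots at PI2 (17906403 UMIs). A spot can hold several cells. With 1 section a stage there is no test, and intervals cover counting error only. RSPO1 stood at 66.2 CPM (95% Poisson interval 63.8 to 68.7, 2834 UMIs) in the G90 section and at 1.84 CPM (1.27 to 2.59, 33 UMIs) in the PI2 section, a ratio of 35.9. A UMI of RSPO1 was present in 39.4% of G90 spots and 1.42% of PI2 spots, with median depths of 8062 and 5927 UMIs. LGR4 stood at 65.0 and 46.3 CPM, LRP5 at 29.9 and 29.4, and LRP6 at 9.90 and 5.19. WNT5B was 1.57 times higher in the PI2 section (15.9 against 25.1 CPM) and RSPO3 was 5.08 times higher there, from 24 and 51 UMIs. WNT5A stood at 2.73 and 2.35 CPM, WNT11 at 0.79 and 1.117, and WNT7B at 0.14 and 0.45, the last from 6 and 8 UMIs.

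Spots were then ranked by the share of their UMIs from markers of a class, and the top 10% were taken as rich in that class. These regions were mixed at G90. Luminal-rich spots held 5803 CPM of luminal and 3571 of fibroblast markers, against 3779 and 4116 over all spots. Fibroblast-rich spots held 12592 CPM of fibroblast and 3101 of luminal markers. At G90, RSPO1 stood at 60.7 CPM (53.0 to 69.3) in luminal-rich, 56.6 in myoepithelial-rich, 54.7 (43.4 to 68.1) in fibroblast-rich and 48.4 in blood endothelial-rich spots. Which cells carried it cannot be told from such mixed spots. The intervals of luminal-rich and fibroblast-rich spots overlapped. The section as a whole, at 66.2 CPM, and the myeloid-rich (65.2), T and NK-rich (64.96), neutrophil-rich (62.1) and B and plasma-rich spots (61.04) lay above the luminal-rich spots. At PI2 it stood at 1.08 CPM in luminal-rich spots and had no UMI in the 225 fibroblast-rich spots. LGR4 was higher in luminal-rich than in fibroblast-rich spots at both stages, 77.1 against 53.3 CPM at G90 and 77.0 against 24.98 at PI2. LRP6 had the opposite order, with 27.4 CPM in fibroblast-rich against 10.3 in luminal-rich spots at G90, and 19.2 against 3.79 at PI2. WNT5A stood at 3.42 CPM in fibroblast-rich and 4.63 CPM in luminal-rich spots at G90, and at 5.76 and 1.63 CPM at PI2, from 3 to 17 UMIs each. RSPO3 stood at 2.05 and 11.53 CPM in fibroblast-rich against 0.82 and 2.71 in luminal-rich spots, WNT11 reached 6.22 and 4.24 CPM in blood endothelial-rich spots and 7.16 and 8.86 CPM in lymphatic endothelial-rich spots (16 and 7 UMIs), and WNT5B stood at 18.5 CPM at G90 and 41.7 CPM at PI2 in luminal-rich spots. These last values rest on few UMIs and have no replicate. With the top 5% of spots, the G90 orders given here turned for RSPO1 and RSPO3 (luminal-rich against fibroblast-rich) and for WNT11 (blood against lymphatic endothelial-rich).

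**Figure D4:**
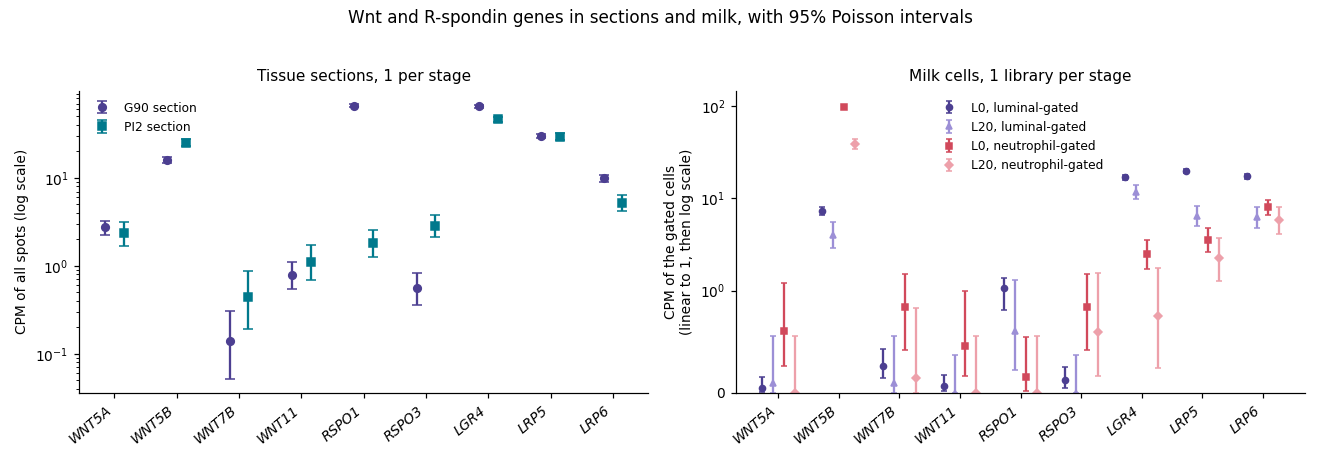
CPM of each of the 9 genes in the G90 and PI2 sections over all spots (left, log scale) and in luminal-gated and neutrophil-gated milk cells at L0 and L20 (right, linear to 1 and then on a log scale), with 95% Poisson intervals of the counts and 1 library per point. RSPO1 is at 66.2 CPM in the G90 section and at 1.84 CPM in the PI2 section, and WNT5B is at 97.3 and 38.9 CPM in neutrophil-gated milk cells.

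In milk, 17571 cells at L0 and 14514 at L20 were kept, with 1 library each and no test. Luminal-gated cells numbered 3259 (median 15981 UMIs) at L0 and 1319 (median 2542) at L20, and neutrophil-gated cells 9588 and 5099. LGR4 stood at 16.9 and 11.7 CPM in luminal cells, which held 91.7% and 89.3% of its UMIs. At L0 it was higher in 38 blood endothelial-gated cells (279 CPM, 148 to 477, 13 UMIs) and 6 myoepithelial-gated cells (716 CPM, 4 UMIs), and neither class held an LGR4 UMI at L20. Of these L0 cells, 30 of 38 and 6 of 6 had only 2 markers of their class, the fewest allowed. Their median depths were 822 and 941.5 UMIs, so what these cells are is uncertain. LRP5 stood in luminal cells at 19.8 and 6.42 CPM, and LRP6 at 17.4 and 6.22 CPM beside 17.6 and 19.1 CPM in myeloid cells. RSPO1 was near the lower end of counting in luminal cells, with 1.06 CPM (61 UMIs) at L0 and 0.60 CPM (6 UMIs) at L20. WNT5B had most of its milk UMIs at L0, and the largest part at L20, in neutrophil-gated cells, which stood at 97.3 and 38.9 CPM and held 58.8% and 42.9%. Cells that met no gate stood at 72.6 and 24.1 CPM and held 14.6% and 21.8%. Luminal cells stood at 7.27 and 4.01 CPM and myeloid cells at 27.0 and 7.89 CPM. Neutrophil-gated nuclei of the glands numbered 28, too few to compare. WNT7B had 43 and 3 UMIs over all milk cells, RSPO3 26 and 11, WNT5A 20 and 2, and WNT11 14 and 3.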

How the data were processed

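Nuclei of 10 swine mammary glands (2 sows at each of 5 stages), 2 tissue sections and 2 milk samples were used, 14 samples in all. The authors counted UMIs with CeleScope (GEXSCOPE libraries of nuclei and milk) or Space Ranger (sections) on Sscrofa11.1 and deposited raw UMI counts per gene and barcode, with no normalization and no removal of doublets or free RNA. The submitters' processing notes name Space Ranger 1.2.0 and Seurat 4.3.0. The annotation release was not given in the sources used here. Samples were grouped by the stage in their labels, with the sow as replicate.

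Nuclei and milk cells with 300 or more genes and no more than 25% mitochondrial UMIs were kept, the limits of the study. A nucleus was gated to the class with the most distinct markers, at least 2 and more than any other class. No member served as a marker. UMIs were summed per gland, or per gland and class with at least 20 nuclei in at least 8 glands, and tested with the quasi-likelihood test of edgeR 4.0.16 in R 4.3.3 (TMM scaling, filterByExpr) on counts, with Benjamini-Hochberg adjustment over all genes of a fit. A call needed an adjusted p under 0.05 and an absolute log2 fold change over 1. Stage fits held stage alone over the 10 glands, with 6 contrasts, and class fits held the gland as a block. The method was tested on simulated counts with 1 spread for all genes. CPM is UMIs per 1000000 UMIs of the sum. Precision is set by 2 sows a stage, and exact Poisson and binomial intervals at 95% cover counting error only. Sections and milk had no replicate and no test. Positions of spots were not used.

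The members and lists were chosen with earlier results of these data known, and no result here is independent of those. Named were all members, for each comparison up to 3 other listed Wnt genes per direction with the largest called change, AXIN2, LEF1, TCF7, NOTUM, ZNRF3, RNF43, LGR5 and FZD genes, and the 3 genes most like each member over class sums (mean CPM of at least 5). Alternatives were DESeq2 1.42.0, RLE scaling, no filter on low counts, 500 or more genes with no more than 5% (milk 10%) mitochondrial UMIs, at least 3 markers or an exclusive gate, the replicate number as a block, only the stages compared, the top 5% of spots, thinning to 1000 UMIs and each gland left out in turn. The fit of class by stage and the pooled LRP6 level without L20 replicate 2 were added after the data were seen. Promoter windows were read from the RefSeq annotation and genome of Sscrofa11.1. Python 3.11.15, pandas 2.3.3, SciPy 1.17.1 and matplotlib 3.10.9 were used. WNT4 was not analysed here.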

Additional observations from a re-analysis of the deposited data

Results flagged for a closer look

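In 14 of 63 groups of 10 glands (9 genes in 7 classes), 1 gland lay farther from the others than a test for an outlying value allows. The rate of about 1 in 20 groups set for this test assumes normally distributed values. Many of these groups hold low counts with several glands at 0, so the number flagged cannot be set against chance. Most of these values rest on few UMIs. WNT5A stood at 12.2 CPM in lymphatic endothelial nuclei of L0 replicate 1 (1 UMI) and at 74.3 CPM in T and NK nuclei of L20 replicate 1 (2 UMIs). RSPO1 stood at 42.1 CPM in fibroblast nuclei of L0 replicate 2 (3 UMIs), at 16.2 CPM in myeloid nuclei of PI2 replicate 2 (3 UMIs) and at 47.5 CPM in T and NK nuclei of G90 replicate 2 (13 UMIs). RSPO3 stood at 76.2 CPM in lymphatic endothelial nuclei of PI2 replicate 2 (3 UMIs) and at 19.1 CPM in myeloid nuclei of L0 replicate 1 (2 UMIs). LGR4 stood at 319 CPM in myoepithelial nuclei of L0 replicate 2 (22 UMIs), LRP6 at 186 CPM in T and NK nuclei of L20 replicate 1 (5 UMIs), and LRP5 at 0 in myeloid nuclei of L0 replicate 2, a sum of 45 nuclei.

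Of the values with more UMIs behind them, 3 came from L20 replicate 2, the gland with the lowest luminal share. They were LRP6 at 794 CPM in fibroblast nuclei (10663 UMIs, next highest gland 431 CPM), RSPO3 at 12.1 CPM in blood endothelial nuclei (39 UMIs) and RSPO3 at 3.91 CPM in luminal nuclei (26 UMIs). The other was WNT5B at 244 CPM in luminal nuclei of PI7 replicate 2 (3245 UMIs), where the next highest gland stood at 138 CPM. What sets these glands apart was not tested.

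LRP6 in adipocyte nuclei, a class outside the tests, stood at 849 CPM pooled over glands, above the pooled 564 CPM of fibroblast nuclei, with 412 of the 505 nuclei from L20 replicate 2, where it stood at 905 CPM beside the 794 CPM of fibroblast nuclei. Without this gland the pooled values were 436 and 334 CPM. The difference between G90 and the later stages was larger in luminal than in fibroblast nuclei for NKD1 (by 2.93 on the log2 scale) and ZNRF3 (by 1.52), and larger in luminal than in blood endothelial nuclei for ZNRF3 (by 1.67), each tested as a difference of differences by edgeR. In these comparisons 0.707% (fibroblast) and 1.13% (blood endothelial) of all genes were called, in either direction.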

How the results depend on the processing

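RSPO1 at G90 against later stages stayed within 3.86 to 4.23 (whole gland) and 4.34 to 4.76 (luminal) on the log2 scale when 1 gland was left out, and calls of members (1 gene in 1 contrast or class) then numbered 0 to 1 in the whole gland, 1 in luminal nuclei, 8 to 19 over classes (8 without G90 replicate 1 or either PI7 gland, where WNT5A and RSPO3 were not tested), 0 to 1 for class by stage, and 0 in luminal subsets and in fibroblast, myoepithelial and blood endothelial nuclei. DESeq2 gave 4 calls (3 genes) in place of 1 in the whole gland and 2, both of RSPO1, in luminal nuclei, where no filter on low counts also gave these 2. Over classes, the exclusive gate gave 9 (without the lymphatic class) and no replicate block gave 8, against 14. WNT5A and RSPO3 were not tested in either of these settings. The exclusive gate also called LGR4 (-1.05) and LRP5 (-1.01) lower in T and NK nuclei. The replicate numbers do not pair sows (correlations of deviations from -0.52 to 0.39). With the replicate number as a block, RSPO1 stood at 3.99 (adjusted p = 0.0414) and 4.49 (0.0297), and all genes called went from 60 to 7 and from 172 to 84. With this block LGR6 lost its calls in the whole gland (adjusted p = 0.090) and in luminal nuclei (0.060), and ZNRF3 in the whole gland (0.098). Other lost calls were LRP5 in luminal nuclei under DESeq2 or RLE (0.92), WNT5B in myoepithelial nuclei with the exclusive gate (0.95) and WNT5A in lymphatic nuclei under DESeq2 (-0.73). All genes called numbered 2144 (DESeq2), 559 (no filter) and 407 (only the stages compared) against 60 in the whole gland, 3032 and 1258 against 172 in luminal nuclei, 125 and 565 against 2 in fibroblast nuclei, 100 and 426 against 2 in blood endothelial nuclei, and 43 and 237 against 0 in myoepithelial nuclei. Without the block, subsets gave 252 against 988. In the top 5% of spots at G90 the order of luminal-rich and fibroblast-rich spots turned for RSPO1 (49.5 against 56.2 CPM) and RSPO3 (0.58 against 0), and that of blood and lymphatic endothelial-rich spots for WNT11 (8.85 against 2.40). With the stricter filter milk WNT5B stood at 105 (L0) and 25.6 CPM (L20) in neutrophil-gated cells. Apart from fits without 1 gland, 189 comparisons of single genes or values with other settings were the same, 7 lost a call and 6 moved. None of those 7 turned direction, and those 6 were levels or shares, which have none. With 1 gland left out, 198 such comparisons were the same, 29 lost a call, 1 gained a call and 1 moved. Some differences that were not called turned without L20 replicate 2, among them those of WNT11 in the whole gland (L20 minus L0 from 1.76 to -0.34, PI2 minus L20 from -0.30 to 1.79) and RSPO3 there (PI2 minus L20 from -1.51 to 0.38). Causes were not tested. Depth limits WNT5A, WNT7B, WNT11 and RSPO3, which had few UMIs in most classes.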
